A study of Mus musculus with 12 samples.

Results

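The regions described here were the TET2 binding sites of cultured mouse myeloid cells that lay close together along the chromosome. TET2 sites of the deposited myeloid list that overlapped were merged, and merged sites on chromosomes 1 to 19 were joined into groups by a fixed limit on the gap between neighbours. The longest gap joined was 12466 bp and the shortest gap left next to a group was 12518 bp. All sites in joined groups of 5 or more were kept, which gave 1241 sites in 214 groups, out of 18533 merged myeloid sites (6.70%, exact Clopper-Pearson 95% interval 6.34 to 7.07). Because the positions in the myeloid list chose these sites, their number, spacing and span are a description with no test. The list of a second culture, acute myeloid leukemia (AML) cells, did not enter the choice and was compared inside the same spans.

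TET2 was located by chromatin immunoprecipitation sequencing (ChIP-seq), in which a rabbit polyclonal antibody to its N terminus recovers crosslinked DNA. The myeloid culture was immortalized with a retroviral AML1-ETO transgene (MigR1-AML1-ETO) and had the genotype Tet2fl/fl; AML1-ETO as wild type or Tet2-/-; AML1-ETO as knockout. The AML culture had no transgene and was Npm1+/cA; Fl3+/ITD, with or without Tet2-/-. Each cell type had 2 wild-type and 2 knockout TET2 libraries, 1 input library without antibody and 1 IgG library, 12 in all. All cells were kept in suspension culture with SCF at 50 ng/ml and with IL-3 and IL-6 at 10 ng/ml each, and whether replicates were separate cultures is not given in the labels. The deposited files hold 1 list of site positions per cell type and no value per library, so depth and replicate spread are unknown, and intervals cover counting error over sites only. Sites of 1 group share a locus and are not independent, and no difference between site sets was tested.

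TET2 oxidizes 5-methylcytosine, a first step in the removal of DNA methylation, and loss of TET2 in blood-forming cells is common in myeloid leukemia. It has no DNA-binding CXXC domain of its own and is brought to chromatin by partner proteins, many of them at enhancers. Enhancers that lie in dense runs near genes of cell identity are often called super-enhancers, which are ranked by ChIP signal. The lists used here hold no signal, so that name is not given to these groups.

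Promoters under the clustered sites ranged from CpG-poor to CpG-rich, and 8 of them are shown because they carry this contrast. They were chosen after their values were seen, from genes at the groups described below. Each is the 250 bases before the transcription start in RefSeq (build GRCm38.p6, the coordinates of mm10), printed 5′ to 3′ on the gene's strand with every CpG in capitals. Each lay wholly inside 1 clustered myeloid site. The 8 do not stand for all promoters under clustered sites. In promoter windows of 300 bp, 20 of 54 with 10 or fewer CpG had an AML site, and 16 of 144 with more CpG also had one. The first 4 promoters lay under sites shared with the AML list: S100a8 (chr3:90668821-90669070, plus strand, 2 CpG), S100a9 (chr3:90695722-90695971, minus strand, 2 CpG), C5ar2 (chr7:16244155-16244404, minus strand, 2 CpG) and Ccl3 (chr11:83649379-83649628, minus strand, 2 CpG). The other 4 lay under myeloid-only sites: Mcl1 (chr3:95658471-95658720, plus strand, 26 CpG), Socs3 (chr11:117969367-117969616, minus strand, 26 CpG), Gata2 (chr6:88193641-88193890, plus strand, 22 CpG) and Pim1 (chr17:29490535-29490784, plus strand, 36 CpG).
S100a8: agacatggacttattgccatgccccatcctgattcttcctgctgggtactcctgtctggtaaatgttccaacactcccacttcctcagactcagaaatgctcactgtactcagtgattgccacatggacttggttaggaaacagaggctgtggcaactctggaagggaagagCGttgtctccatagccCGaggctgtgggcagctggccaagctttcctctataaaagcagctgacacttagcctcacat
S100a9: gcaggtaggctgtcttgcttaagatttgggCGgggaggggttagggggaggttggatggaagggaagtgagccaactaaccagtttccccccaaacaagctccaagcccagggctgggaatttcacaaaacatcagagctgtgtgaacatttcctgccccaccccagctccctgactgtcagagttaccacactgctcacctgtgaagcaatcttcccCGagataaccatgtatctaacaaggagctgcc
C5ar2: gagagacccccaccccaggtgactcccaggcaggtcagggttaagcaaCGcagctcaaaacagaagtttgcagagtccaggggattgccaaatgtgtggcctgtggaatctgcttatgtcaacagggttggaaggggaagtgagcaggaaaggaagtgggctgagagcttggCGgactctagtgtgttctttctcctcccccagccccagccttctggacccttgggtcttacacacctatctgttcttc
Ccl3: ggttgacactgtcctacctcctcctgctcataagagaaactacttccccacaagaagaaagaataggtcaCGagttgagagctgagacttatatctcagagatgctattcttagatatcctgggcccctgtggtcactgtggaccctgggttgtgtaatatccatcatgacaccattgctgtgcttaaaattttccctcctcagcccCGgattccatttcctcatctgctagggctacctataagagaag
Mcl1: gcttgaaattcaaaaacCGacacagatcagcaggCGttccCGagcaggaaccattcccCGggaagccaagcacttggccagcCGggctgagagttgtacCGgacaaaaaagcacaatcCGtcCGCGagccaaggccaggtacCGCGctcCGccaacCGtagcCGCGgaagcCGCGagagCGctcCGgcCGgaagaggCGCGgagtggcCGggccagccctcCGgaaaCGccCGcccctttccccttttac
Socs3: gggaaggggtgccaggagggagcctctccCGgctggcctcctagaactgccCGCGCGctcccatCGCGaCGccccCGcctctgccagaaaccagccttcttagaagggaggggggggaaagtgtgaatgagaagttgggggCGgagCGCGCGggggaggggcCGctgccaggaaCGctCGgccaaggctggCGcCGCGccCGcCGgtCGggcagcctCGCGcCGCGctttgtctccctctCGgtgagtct
Gata2: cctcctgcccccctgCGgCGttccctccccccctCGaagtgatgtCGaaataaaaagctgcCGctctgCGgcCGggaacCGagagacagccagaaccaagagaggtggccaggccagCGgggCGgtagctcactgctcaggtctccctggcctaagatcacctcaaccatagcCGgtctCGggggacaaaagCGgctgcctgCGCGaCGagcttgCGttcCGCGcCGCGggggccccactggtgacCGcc
Pim1: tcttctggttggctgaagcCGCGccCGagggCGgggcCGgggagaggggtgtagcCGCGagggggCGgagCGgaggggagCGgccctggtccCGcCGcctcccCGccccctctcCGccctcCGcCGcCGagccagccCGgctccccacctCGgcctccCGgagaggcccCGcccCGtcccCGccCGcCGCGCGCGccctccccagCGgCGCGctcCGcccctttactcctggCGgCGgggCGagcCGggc

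The 214 groups were small loci of mostly 5 sites. There were 136 groups of 5 sites, 37 of 6, 18 of 7, 9 of 8, 6 of 9, 3 of 10, 3 of 11 and 2 of 12. Spans from the first start to the last end ran from 10.3 to 71.3 kb, with a median of 25.6 kb (quartiles 19.1 and 32.8 kb), and added up to 5.85 Mb. Sites covered 16.2% of this length (8.80% to 40.6% over groups). Density ran from 1.20 to 4.86 sites per 10 kb, with a median of 2.17. The median gap between neighbours inside a group was 4.02 kb (quartiles 1.57 and 7.44 kb), against 30.0 kb between neighbouring sites over chromosomes 1 to 19. Of the 1027 gaps inside groups 124 were over 10 kb, and of the 421 gaps beside a group 46 were at most 15 kb. Just under the minimum size there were 283 groups of 4 sites.

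Dense groups lay on every chromosome from 1 to 19, in unequal numbers. Chromosome 11 held most groups (19, with 117 sites) and chromosome 16 fewest (3, with 17 sites). As a share of the merged myeloid sites of the chromosome, clustered sites ranged from 2.65% on chromosome 16 to 10.1% on chromosome 15.

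The 2 groups of 12 sites lay at unlike loci, a stretch between genes and a signalling locus. The first spanned 62.4 kb on chromosome 2 (117951279 to 118013704) and met no protein-coding gene. All 12 of its sites were intergenic, and the nearest gene of each was Thbs1, which encodes the secreted matrix protein thrombospondin 1. Its AML sites numbered 6, all shared, and these fell on the 3rd and the 5th to 9th sites, so that the 2 sites at one edge and 3 at the other were myeloid-only. The shared site nearest Thbs1 was also its widest, at 1328 bp. The second group of 12 spanned 71.3 kb on chromosome 9 (107263708 to 107334959) over Mapkapk3, Cish and Hemk1. Mapkapk3 encodes a kinase downstream of p38, and Cish a feedback inhibitor that is induced by cytokines through STAT5. Of these 12 sites, 4 were shared with the AML list. The site at the Cish promoter, 1309 bp wide, was myeloid-only, and the 4 shared sites lay at -15.9, -13.6, 16.4 and 37.9 kb from the Cish start, with negative values upstream.

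**Figure D1:**
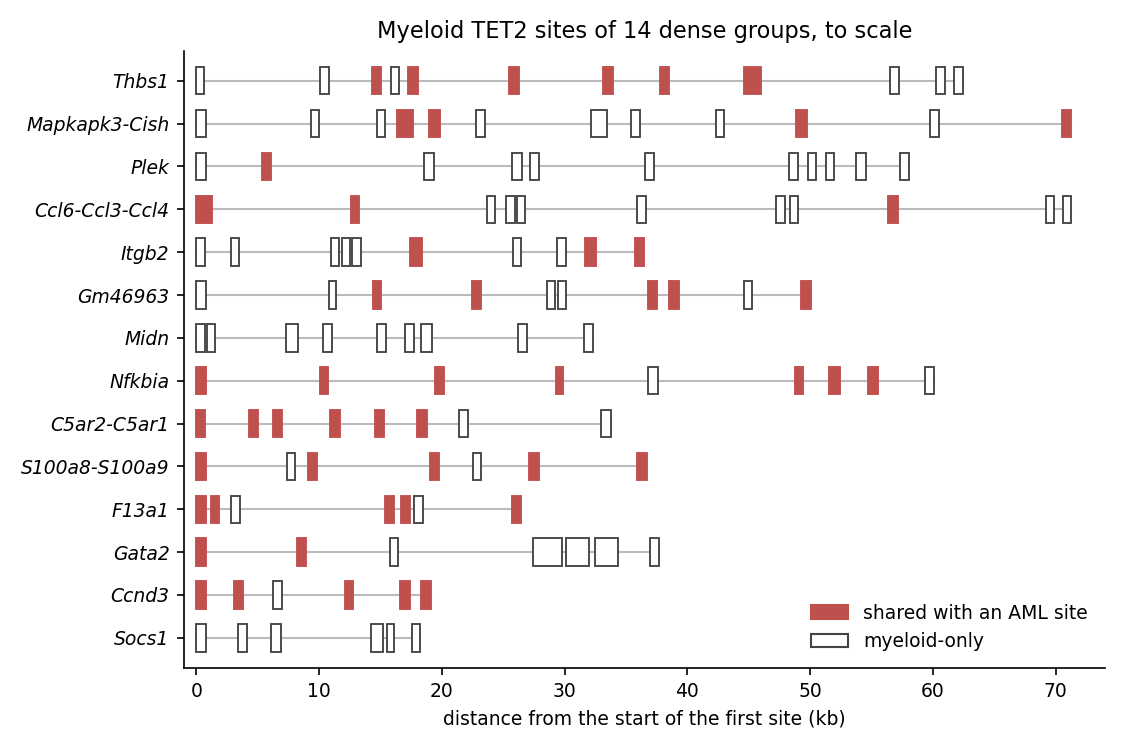
Myeloid TET2 sites of 14 dense groups, drawn to scale as boxes along the distance in kb from the start of the first site, 1 row per group. Rows are labelled by genes at or nearest to the group, and the Thbs1 and F13a1 groups met no protein-coding gene. Filled boxes are sites that share at least 1 bp with an AML site and open boxes are myeloid-only sites. The Midn and Socs1 rows have no filled box, and the Nfkbia row has 7 of 9.

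The 6 groups with 10 or 11 sites lay at loci of unlike function. Itgb2, the beta chain of the leukocyte integrins, carried a group of 10 sites over 36.5 kb on chromosome 10, with 8 sites nearest to the gene itself. The 3 shared sites were inside its body, at 17.4, 31.7 and 35.7 kb from the start of the group. The 2 sites within 1 kb of its annotated limit at 77530329 were myeloid-only. Here and below, a gene end is an annotated limit of a gene on either side, so it can be the transcription start. Plek, which encodes pleckstrin, a substrate of protein kinase C in platelets and leukocytes, lay in a group of 11 sites over 58.1 kb on chromosome 11. Of these 11 sites 1 was shared, at 5.34 kb from the start of the group and nearest to Fbxo48.

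The chemokine genes Ccl6, Ccl3 and Ccl4 shared 1 group of 11 sites, the longest span of all at 71.3 kb. These genes encode secreted proteins that attract leukocytes. Of the 11 sites, 3 were shared, among them the sites at the transcription starts of Ccl6 and Ccl3 (-0.318 and -0.176 kb). The site 952 bp from the annotated limit of Ccl4 at 83664683 was myeloid-only. The 6 sites from 23.7 to 48.3 kb after the start of the group, between Ccl6 and Ccl3, were all myeloid-only. The group of 11 sites at Tpst2, a sulfotransferase gene, with the lens crystallin genes Cryba4 and Crybb1 had 2 shared sites. The group of 10 at Sh2b2, an adaptor of receptor kinase signalling, with Orai2 and Prkrip1 had 3 shared sites but 2 AML sites in its span. That of 10 at Gm46963 had 5 shared sites. Gna15, a G protein subunit gene of blood cells, had 9 sites and 1 shared, and Midn, described below, also had 9.

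AML sites lay in most of the dense groups. Inside the spans there were 399 of the 6778 AML sites on chromosomes 1 to 19 (5.89%, 95% interval 5.34 to 6.47), a share below the 6.70% of myeloid sites that the spans hold. At least 1 AML site lay in 174 of the 214 groups (81.3%, 75.4 to 86.3) and none in 40. Of all merged myeloid sites, 26.3% were shared with the AML list. At that share most groups of 5 or more sites would hold an AML site, so nothing is read from this count. A single AML site lay in 51 groups, 2 in 61, 3 in 36, 4 in 16, 5 in 7, 6 in 2 and 7 in 1. In AML sites per 100 myeloid sites, the spans had 32.2 and the rest of these chromosomes 36.9. The rule chose the spans for their many myeloid sites, which lowers both AML values by itself, so nothing is read from them. Joining the AML list by the same rule gave 9 groups with 49 sites in all, of which 5 met a myeloid group.

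Nearly all AML sites in the spans coincided with a myeloid site. Of the 399, 385 shared at least 1 bp with one (96.5%, 94.2 to 98.1), beside 71.8% of all AML sites and 70.2% of those outside the spans. The rule places many myeloid sites in the spans, so this gap is a description and nothing is read from it. The other 14 AML sites lay in 14 different groups, at 126 to 3914 bp from the nearest myeloid site (median 1.64 kb). The 3 shortest spans among these groups had 3 shared and 1 AML-only site each. They lay in Lasp1, which encodes an actin-binding protein, in Pstpip1, a cytoskeletal adaptor of leukocytes, and next to Stx11, a syntaxin of granule release.

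**Figure D2:**
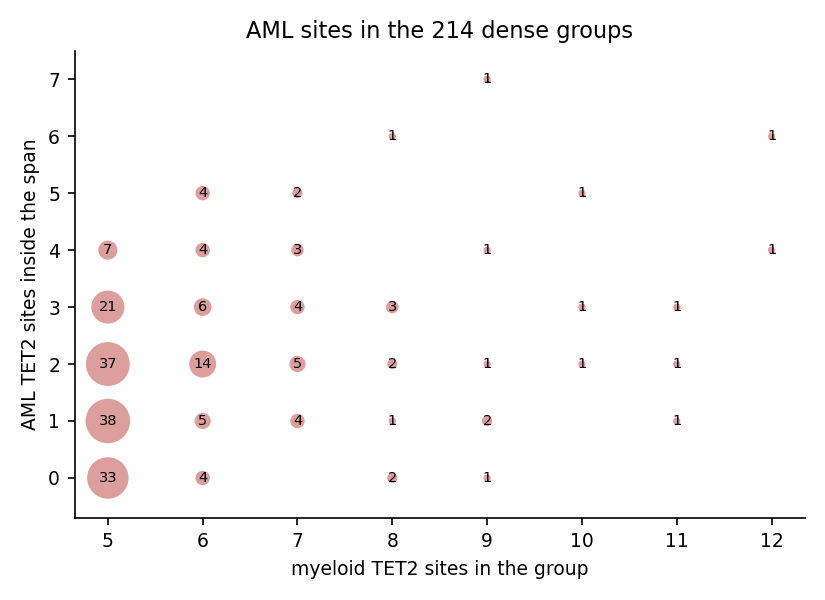
Number of AML TET2 sites inside the span (vertical axis) against the number of myeloid TET2 sites in the group (horizontal axis) for the 214 dense groups. The area of a circle and the number in it give the count of groups. Among groups of 5 sites, 33 have 0 AML sites, and the group with 7 AML sites has 9 myeloid sites.

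The groups richest in AML sites lay at Nfkbia and at the C5a receptor genes. Nfkbia, which encodes the NF-kB inhibitor I-kappa-B alpha, had a group of 9 sites over 60.1 kb on chromosome 12 (55436874 to 55496951), and 7 of them were shared. Both of its sites at gene ends were shared, at 51.5 and 54.7 kb from the start of the group, and the other 5 shared sites were intergenic. C5ar2 and C5ar1 encode receptors of the complement fragment C5a, which attracts phagocytes. Their group had 8 sites over 33.8 kb on chromosome 7 (16239608 to 16273385), and the 6 sites at and in the receptor genes were shared. The last 2 sites, 1 beyond C5ar1 and 1 at the end of Inafm1, were myeloid-only.

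The intergenic group nearest Thbs1, described above, had 6 AML sites, and 7 groups tied at 5. The 2 with the shortest spans, at Ccnd3 and next to F13a1, are described here, and the others lay at Gm46963, S100a8, Zc3h12a, Abcd2 and Fpr1. Ccnd3, which encodes cyclin D3 of the G1 phase, had 6 sites over 19.1 kb and 5 of them were shared. The site at its upstream start was among the shared ones. From its other start, at 47593467, the 6 sites lay at -70.1 to -88.4 kb, which is upstream. F13a1 encodes the A chain of coagulation factor XIII, made by monocytes and megakaryocytes. Its 7 sites lay at -54.9 to -80.6 kb from the nearer transcription start on chromosome 13, which is upstream, and 5 were shared. In no group were all members shared, and in 47 of the 214 at least 50% were.

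At the other extreme, 40 groups held no AML site, among them the group at Midn with 9 sites over 32.3 kb. It also covered Atp5d, Cirbp, which encodes an RNA-binding protein induced by cold, and Fam174c. Next came Nfkbil1 with Atp6v1g2 and Ddx39b on chromosome 17 (8 sites), and an intergenic group of 8 sites upstream of Zfp217, at -33.2 to -81.4 kb from its nearer start. Hmga1, a chromatin architecture gene, and Socs1, which encodes an inhibitor of JAK kinases, had 6 sites each. The 6 Socs1 sites spanned 18.3 kb on chromosome 16, with 3 at gene ends and 3 from 10.5 to 16.6 kb downstream of the start. Of the 40 groups without an AML site, 33 had the minimum of 5 sites, as had 136 of all 214 groups.

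The 5 densest groups by sites per 10 kb were short and met 1 to 3 genes each. Nfil3, which encodes a basic leucine zipper factor, had 5 sites in 10.3 kb (4.86 per 10 kb) and 0 AML sites. Lgals1, the galectin 1 gene, with Nol12 had 4.21 sites per 10 kb and 1 AML site. The locus of Tyrobp, Hcst and Nfkbid had 4.20 and 2 AML sites, and the last of its 5 sites covered the Nfkbid promoter. Tyrobp and Hcst encode the adaptors DAP12 and DAP10 of myeloid and natural killer receptors, and Nfkbid a nuclear I-kappa-B protein. Ctsd, the lysosomal protease cathepsin D, had 4.05 and 4 AML sites, and Klhl2 4.02 and 2.

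Clustered sites were shared with the AML list somewhat more often than other myeloid sites. Of the 1241 clustered sites, 386 shared at least 1 bp with an AML site (31.1%, 28.5 to 33.8), against 26.3% of all merged myeloid sites and 25.9% of those outside the groups (25.3 to 26.6). The share was 23.4% for isolated sites (22.6 to 24.3), 28.0% in pairs, 29.7% in groups of 3 and 29.4% in groups of 4. It was 29.0% in groups of exactly 5 (25.6 to 32.5), 37.8% in groups of 6 (31.4 to 44.6), 31.8% in groups of 7 or 8 and 29.8% in groups of 9 to 12. The clustered share thus stood close to that of groups of 2 to 4, and the lowest share was that of isolated sites. The share was higher in the groups than outside them on 14 of 19 chromosomes.

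At the joining limit used, the difference was widest for sites at gene ends, but its size there depended on that limit. Gene ends here are the annotated limits of protein-coding genes, and a site counted as being at one when its midpoint lay within 1 kb. Of 211 clustered gene-end sites, 46 were shared (21.8%, 16.4 to 28.0), against 11.3% of 3962 gene-end sites elsewhere (10.3 to 12.3). These 46 sites lay in 36 groups, with at most 3 in 1 group. With a joining distance of 10 kb the gene-end difference was 5.56 percentage points in place of 10.5. Its approximate interval over sites, -1.50 to 12.6, included 0 and counts the error of the clustered share only. In gene bodies the shares were 29.5% (25.7 to 33.5) and 28.6% (27.6 to 29.7), whose intervals overlap. Between genes they were 37.1% (32.7 to 41.6) and 32.1% (31.0 to 33.3), whose intervals also overlap. Within 1 kb of a transcription start, a class added after the data were seen, 19.4% of 165 clustered sites (13.7 to 26.3) and 9.64% of 3434 others (8.67 to 10.7) were shared.

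**Figure D3:**
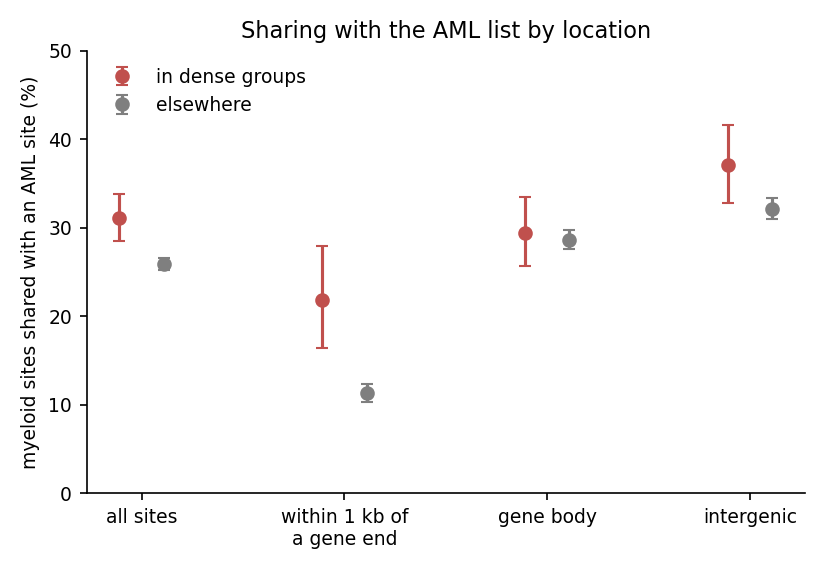
Percent of merged myeloid TET2 sites that share at least 1 bp with an AML site (vertical axis), for all sites and by location, in dense groups and elsewhere. Points are shares and bars exact 95% intervals over sites. At gene ends the clustered sites stand at 21.8% and the others at 11.3%, and in gene bodies the intervals overlap.

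The 46 shared gene-end sites had 44 different nearest genes. Of these, 11 were in the gene lists used here, with 1 site each: S100a8 and S100a9, which encode the calprotectin subunits of neutrophils, Ccl3, Ccl6, Mmp8, Ccnd3 and the factor genes Spi1, Lyl1, Nfe2, Klf6 and Klf13. The others were of mixed function. C5ar1, C5ar2, C3ar1, the receptor of complement fragment C3a, Tyrobp, the inflammasome gene Nlrp3 and Slc11a1, a metal transporter of phagosomes, had 1 each. Nfkbia and Sh2b2 had 2 each, and both Sh2b2 sites met the same AML site. Genes of general cell function had 1 shared gene-end site each, among them Tufm, Sdhb, Eif2d, Emg1, Trmt1, Ap4b1 and Cbx5. The genes named here beyond the groups described above were chosen after their values were seen.

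Site width went with sharing both in and outside the groups. The median width of clustered sites was 718 bp (709 bp elsewhere), and that of sites made from 1 deposited row was 714 bp (705 bp elsewhere). Shared clustered sites had a median of 770 bp and myeloid-only ones 695 bp, against 757 and 695 bp elsewhere. Among sites under 700 bp, 13.4% of clustered (10.6 to 16.6) and 13.5% of other sites were shared. At 800 bp or more and under 1000 bp these were 52.4% (45.4 to 59.3) and 42.8% (40.9 to 44.8).

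The gene-end difference was present among wide sites. At gene ends, 40.6% of 69 clustered sites of 800 bp or more were shared (28.9 to 53.1), against 18.9% of 1210 others (16.8 to 21.2). Away from gene ends, the same width class gave 121 of 220 clustered sites (48.2% to 61.7%) and 1256 of 2285 others (52.9% to 57.0%), which is nearly the same share. Under 700 bp the gene-end shares were 6.33% of 79 (2.09 to 14.2) and 4.28% of 1473.

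Clustered sites lay less often at gene ends than other myeloid sites. Gene ends held 17.0% of them, against 22.5% of all merged myeloid sites and 22.9% outside the groups. Gene bodies held 44.3% (41.9% of all) and 38.7% were intergenic (35.6% of all). Within 1 kb of a transcription start lay 13.3% of clustered sites, against 19.4% of all myeloid sites. Isolated sites had the highest gene-end share, at 26.0%. The share was lower in the groups than outside them on 17 of 19 chromosomes, the exceptions being chromosomes 16 and 19.

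By locus, 120 of the 214 groups had a gene-end site and 94 had none. In 38 groups every site was in a gene body and in 32 every site was intergenic. No protein-coding gene met the span in 32 groups, 1 did in 108, and 2 or more in 74, up to 6. In 102 groups all sites had the same nearest gene. The gene nearest to most sites of a group had a median length of 25.5 kb, against 17.5 kb for all protein-coding genes of chromosomes 1 to 19. That background includes genes that are nearest to no myeloid site, so nothing is read from the difference. Groups with 3 or more gene-end sites had 24.0% shared sites (17.3 to 31.7), and those with none 32.3% (28.3 to 36.4).

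Pooled over all groups, shared sites had shared neighbours somewhat more often. Of the neighbours of a shared site 37.7% were shared, and of the neighbours of a myeloid-only site 28.7%. Of the 1027 neighbouring pairs, 122 were both shared, 404 had 1 shared site and 501 had none. The outermost sites of the groups were shared in 29.0% (24.7 to 33.5) and those between them in 32.2% (29.0 to 35.6), whose intervals overlap.

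Promoters under clustered sites differed in CpG content by whether the AML list also had a site there. For this, RefSeq windows of 300 bp, from 250 bases before to 50 after a start, were used, and some genes have several overlapping windows. A clustered site met 198 windows of 170 genes, and another myeloid site met 4466 windows. The median CpG count was 21 (quartiles 8 and 31) in the former, 23 in the latter and 7 over all 31396 windows. Clustered windows with an AML site had a median of 7 CpG (quartiles 4 and 29, 36 windows) and those without one 22.5 (14 and 31, 162 windows). Elsewhere these medians were 15 (413 windows) and 24 (4053 windows), so the order of the medians was the same outside the groups.

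**Figure D4:**
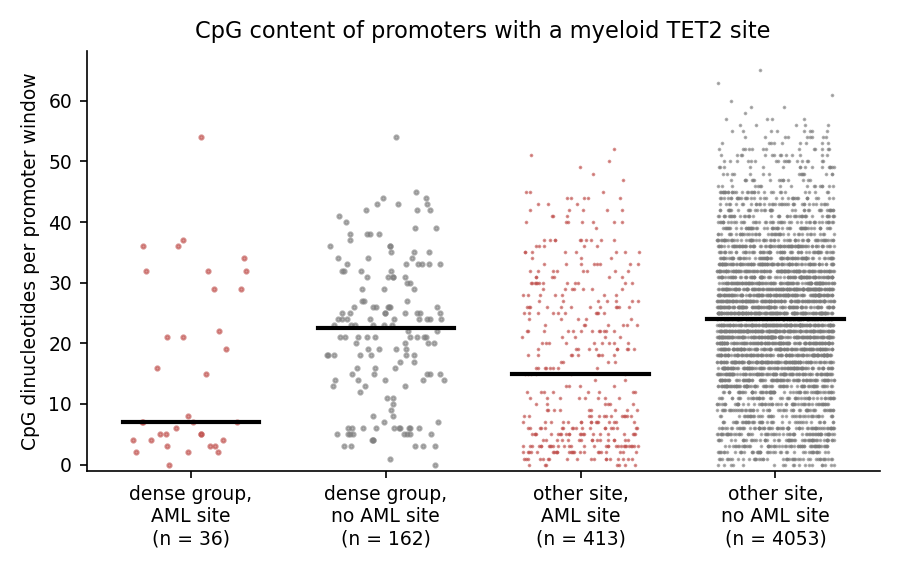
CpG dinucleotides per 300 bp promoter window (vertical axis) for windows that meet a clustered or another myeloid TET2 site, split by whether they also meet an AML site. Each point is a window and each black line a median. The medians are 7 and 22.5 in dense groups and 15 and 24 elsewhere, and each set spreads over low and high counts.

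Clustered windows had CpG-poor promoters more often and had a higher share with an AML site in each CpG class. With a limit of 10 CpG, set after the data were seen, 27.3% of clustered windows were CpG-poor, against 16.1% of windows with another myeloid site. Among CpG-poor windows, 37.0% of 54 clustered (24.3 to 51.3) and 180 of 721 others (21.8% to 28.3%) had an AML site. Among CpG-rich windows these were 11.1% of 144 (6.49 to 17.4) and 6.22% of 3745 (5.47 to 7.04), and the intervals overlap in both classes. The printed promoters show the contrast at its clearest and do not stand for each class, since of the 54 CpG-poor clustered windows 20 had an AML site and the larger number had none. For single genes, Klf13, with 32 CpG in its window, was shared, and Mmp8, a neutrophil collagenase gene, and Plek, with 4 CpG each, were myeloid-only.

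The shares of short binding motifs in these windows lay above or below those of all promoters, depending on the motif, and near those of other windows with a myeloid site. TGTGGT, the letters bound by RUNX factors, or its reverse complement was in 18.2% of clustered windows (13.1 to 24.3), against 16.7% of all windows and 14.4% of those with another myeloid site. TTGCNNAA, a C/EBP pattern, was in 11.6% (7.51 to 16.9) against 10.9% of all and 9.54% with another myeloid site. GAGGAAGT, a PU.1 pattern, was in 5.05% (2.45 to 9.09) against 3.25% and 4.52%. CACGTG, the E-box of MYC and USF factors, was in 13.1% (8.76 to 18.6) against 7.14% of all and 11.2% with another myeloid site. AGATAA, the letters of GATA factors, was in 6.57% against 11.2% of all and 6.07% with another myeloid site. TGANTCA, the AP-1 pattern, was in 5.56% against 7.84% and 5.19%. For all 6 motifs the interval of the clustered windows held the share of windows with another myeloid site. Both strands were read, and motifs were allowed to overlap. In the S100a9 window printed above, a C/EBP match started at base 15, a RUNX match at base 187 and a GATA match at base 221, and in that of C5ar2 C/EBP matches started at bases 41 and 85.

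Genes of cytokine signalling were often next to a dense group. Of 20665 protein-coding genes, 1.94% had their body or a 10 kb flank in a group span, and of 46 genes in the signalling list 11 did (23.9%). The gene lists were written with earlier results of these data known, so the list shares are a description. Genes of this list also had myeloid sites more often, with one in the body of 38 of 46, against 7317 of 20665. Beside Cish, Socs1 and Ccnd3, these were Socs3, Pim1, Mcl1, Dusp1, Ccnd2, Ptpn6, Inpp5d and Csf2rb2. Socs3, a feedback inhibitor of interleukin 6 signalling, shared a group of 8 sites with Pgs1, with 3 AML sites of which 1 was AML-only. Inpp5d, the lipid phosphatase SHIP1, had 7 sites inside its body, 3 of them shared. Ptpn6, the phosphatase SHP-1, and the survival kinase gene Pim1 each had 5 sites in the group and 3 shared. Mcl1, an inhibitor of apoptosis, had 5 sites and 2 shared, and Dusp1, a MAP kinase phosphatase, 5 and 1. Ccnd2, which encodes cyclin D2, had 5 sites and 0 AML sites. Csf2rb2, a beta chain of the interleukin 3 receptor, was reached through its flank by the group at Ncf4.

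Granulocyte and monocyte genes had 5 of 25 and 3 of 23 members at a group, beside 1.94% of all protein-coding genes. These lists also had myeloid sites more often, with one in the body of 20 of 25 and 17 of 23 genes, against 7317 of 20665. At S100a8 and S100a9 the 7 sites spanned 36.7 kb on chromosome 3 (90659490 to 90696238) and 5 were shared, including both promoter sites. The 2 myeloid-only sites there, at 643 and 653 bp, were narrower than the 5 shared ones, which were 754 to 842 bp wide. Ncf4, a cytosolic subunit of the phagocyte oxidase, had 5 sites in its group and 3 shared, and Mmp8 had 5 and 1. Itgb2 and the chemokine genes are described above. Of 18 mast cell, basophil and eosinophil genes 1 was at a group, Srgn, which encodes the granule proteoglycan serglycin (8 sites, 2 shared).

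Genes of blood transcription factors had 6 of 41 members of the myeloid list and 2 of 30 of the progenitor list at a group. The share of all protein-coding genes was 1.94%. A myeloid site lay in the body of 32 of 41 and 15 of 30 of these genes, against 7317 of 20665. Spi1, which encodes PU.1, had 5 sites in its group over 28.8 kb and 3 shared. Nfe2, a factor of erythroid and megakaryocytic genes, had 5 and 3, Klf13 6 and 3, the retinoic acid receptor gene Rara 7 and 2, and Klf6 5 and 2. Gata2, a factor of stem and progenitor cells, had 7 sites over 37.7 kb on chromosome 6. Its 2 shared sites lay at -27.6 and -19.5 kb from the first start, and the 5 sites from -11.9 to 9.30 kb were myeloid-only. Of these, the 3 sites from 0.576 to 5.35 kb were 1829 to 2338 bp wide, and the widest covered the printed promoter. Lyl1, a basic helix-loop-helix factor, had 5 sites and 3 shared. A group of 6 sites lay 52.1 to 86.6 kb downstream of the start of Cebpb, beyond the flank used here, with 2 shared.

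**Figure D5:**
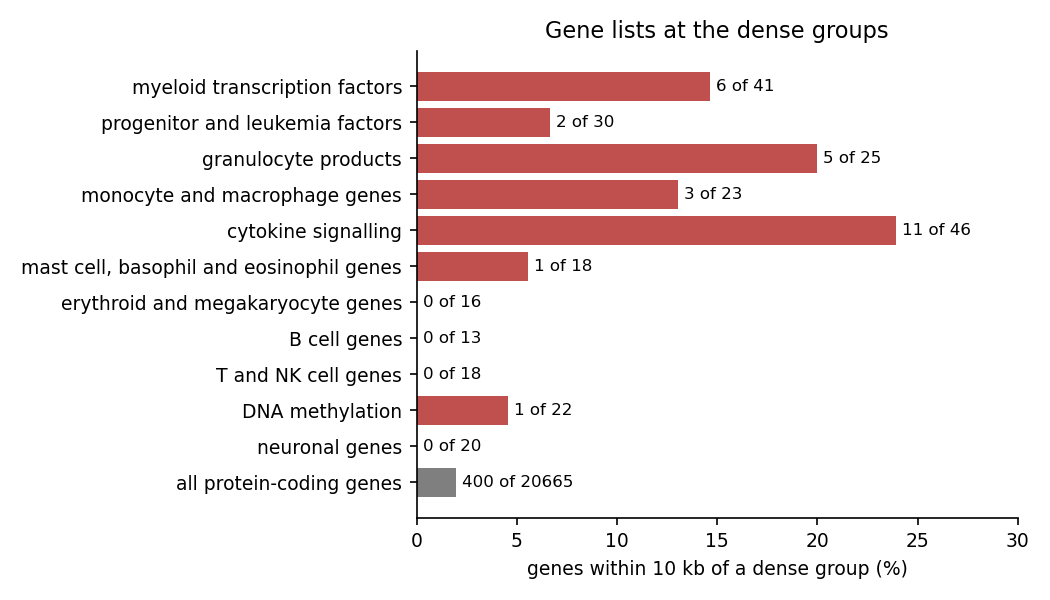
Percent of the genes of each list whose body or 10 kb flank meets a dense group (horizontal axis, from 0), with the number of genes beside each bar. Cytokine signalling stands at 11 of 46 genes, and 4 lists stand at 0, beside 400 of 20665 protein-coding genes.

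Of the other lists, DNA methylation had 1 of 22 genes at a group, Gadd45b, with 5 sites and 1 shared. Erythroid and megakaryocyte genes had 0 of 16, B cell genes 0 of 13, T and NK cell genes 0 of 18 and neuronal genes 0 of 20. At the background share of 1.94%, fewer than 1 gene would fall in each of these lists, so the counts of 0 say little. Genes with many sites were not always at a group. Of 776 genes nearest to 5 or more myeloid sites, 622 had no clustered site nearest to them. In the lists these included Tet2 (8 sites), Id2 (16), the ERK phosphatase gene Dusp6 (12) and Ikzf1 (7), whose sites lay in joined groups of at most 4.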

How the data were processed

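TET2 ChIP-seq was made from 12 libraries of cultured mouse cells, crosslinked with 2 mM disuccinimidyl glutarate and 1% formaldehyde and sheared to 200 to 500 bp, per the labels' protocols. Trimmomatic, Bowtie2 and MACS2 with the mm10 build are named in the submitters' processing notes, while tool versions, thresholds, any pooling of replicates and the use made of the knockout and control libraries were not stated. What the authors deposited was 1 list of positions per cell type, whose rows give only chromosome, start and end per the file headers. Whether starts count from 0 or 1 is not stated.

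Rows sharing at least 1 bp were merged (19706 myeloid and 7002 AML rows). Joining, overlaps and gene distances were computed with Python 3.11.15, pandas 2.3.3, numpy 2.4.6 and scipy 1.17.1, and the joining and overlap steps were tested on simulated data. Genes and promoters came from RefSeq tables of GRCm38.p6. The gene table holds no strand, so gene ends of either side were used, and starts came from the promoter table, which covers part of the genes. Named groups were the 10 with most sites, 5 with most AML sites, 5 largest with 0 AML sites, 3 with most AML-only sites and 5 densest, with ties to the shorter span, and list genes meeting a span. The regions and gene lists were chosen with earlier results of these data known. No test was run, because no file gives a value per library.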

Additional observations from a re-analysis of the deposited data

How the results depend on the processing

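Across 109 alternative values 78 stayed within the 95% interval of the reported value, within 1.5 times a reported count or, for the median width, within 1 SD, and 31 moved. For the excesses given below, the interval counts the error of the clustered share only. The SD was that of single site widths, 158 bp. All 9 median widths thus counted as unmoved by a wide limit and add little to the 78. The number of clustered sites (1241) was 163, 757 and 2737 with joining distances of 5, 10 and 20 kb, and 2373 and 561 with minimum sizes of 4 and 6 sites. In the same order, the number of groups (214) was 31, 132, 440, 497 and 78, and AML sites inside the spans (399) numbered 59, 237, 880, 743 and 196. Groups with an AML site made up 90.3% at 5 kb and 91.0% at a minimum of 6. The share of clustered sites shared with the AML list (31.1%) was 35.6% at 5 kb and 35.8% when a gap of up to 1 kb counted as shared. Its excess over other sites, 5.20 percentage points, was 9.42 and 7.84 points under these settings and from 4.17 to 7.67 points under the others. The excess at gene ends, 10.5 points, was 21.6 at 5 kb, 5.56 at 10 kb with an interval of -1.50 to 12.6 that includes 0, 6.13 at 20 kb, 6.93 with a minimum of 4, and 8.74 to 12.8 elsewhere. The share of clustered sites at gene ends (17.0%) was 14.7% at 5 kb, 12.97% and 25.2% with limits of 0.5 and 2 kb, 23.4% with all annotated genes and 13.3% with transcription starts alone. Of all list genes, 10.7% were at a group, against 2.21% and 19.9% at 5 and 20 kb and 16.2% and 5.54% with minimum sizes of 4 and 6. Both excesses and the transcription starts were added after seeing the data. No paired analysis was possible because the lists hold no value per library, and leaving out replicates was not possible for the same reason. The depth behind a site is unknown, so a myeloid-only site is one that the AML list does not hold, not one shown to be unbound.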

Other observations

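Several dense groups lay at or near genes of innate immunity and inflammation, which were chosen after their values were seen. Of these, only Tlr2 was in a list, that of monocytes and macrophages. In the same list Tlr4, Cd14, Clec4e and Clec7a had no clustered site nearest to them. The genes named do not stand for all such genes, and of all clustered sites 31.1% were shared. Fpr1 and Fpr2, receptors of formylated peptides, had a group of 6 sites, 5 of them shared with the AML list. Zc3h12a, an RNase that degrades cytokine mRNAs, also had 6 sites and 5 shared. Acod1, the enzyme that makes itaconate in activated macrophages, had 5 and 4, and Plaur, the urokinase receptor, 7 and 4. Irak2, a kinase of Toll-like receptor signalling, had 9 sites and 2 shared, and an intergenic group of 9 next to Map3k8, a kinase of the same pathway, had 4 shared. Tlr2 was the nearest gene of most sites in an intergenic group of 5 with 2 shared, and Nlrp3 had 5 sites and 1 shared.

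Of the 214 groups, 8 spanned microRNA hairpins, 10 in all. Mir21a lay in the group of 6 sites at Vmp1, which had 0 AML sites, and Mir146b in a group of 9 sites with 1 shared. Both are known from myeloid cells, and their main mature strands are shown with the seed (bases 2 to 8) in capitals, from RefSeq, GRCm38.p6. The nearest clustered sites were myeloid-only, 2319 bp from the Mir21a hairpin and 1385 bp from that of Mir146b. The seeds differ, so these strands belong to different seed families.
mmu-miR-21a-5p (chr11:86584120-86584141, minus strand): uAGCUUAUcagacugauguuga
mmu-miR-146b-5p (chr19:46342790-46342811, plus strand): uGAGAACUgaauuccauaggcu

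Groups made from the AML list by the same rule did not always meet a myeloid group. Of the 9 groups that the same rule made from the AML list, 4 met no myeloid group. The one at Il17ra, an interleukin 17 receptor gene, had 7 AML sites, the most of any, and 5 myeloid sites in its span. The others lay at Cd300a and Cd300lb (5 AML and 4 myeloid sites), 1600014C10Rik (5 and 4) and Cd33 (5 and 3). The myeloid sites in these spans did not form a joined group of 5 or more, which does not make them sparse. Some myeloid groups were neighbours within 100 kb, in 8 pairs, the closest 17.3 kb apart at Lst1 and Nfkbil1 on chromosome 17.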
